A study of Homo sapiens with 4 samples.

Results

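The mitosis genes described here are 34 listed genes whose products drive entry into mitosis, build the spindle, hold the spindle checkpoint or trigger chromosome separation. The list was chosen with earlier results of these data known. Its genes were looked up among the array's probe sets with exactly 1 gene symbol. Where a gene had several, the one with the highest mean of the 4 arrays stood for it. Of the 34 genes, 32 had such a probe set and 25 reached a log2 value of 5 on at least 1 array, among 3588 genes analysed of 8225 with a probe set. The 25 are the members that passed this filter and not the whole list. BUB1 and TTK were just inside it, with highest values of 5.40 and 5.41, and CENPF and MKI67 just outside it, with highest values of 4.79 and 4.49.

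The RNA came from LS180, an established human colon carcinoma cell line, in which removing doxycycline restores RBM35A protein through Tet-off control. RBM35A, now called ESRP1, binds RNA and controls alternative splicing in epithelial cells. There were 4 groups with 1 array each: polysomal RNA of RBM35A+ cells, polysomal RNA of RBM35A− cells, total RNA of RBM35A+ cells and total RNA of RBM35A− cells. RBM35A+ cells had been at least 6 days without doxycycline, while RBM35A− cells were parental cells kept with doxycycline, and the labels do not say whether these carried the construct. All cells were kept short of confluence, cells for the polysomal arrays were washed in cycloheximide, and polysomal RNA, the RNA of transcripts loaded with several ribosomes, was pooled from sucrose gradient fractions. RBM35A state, doxycycline and any difference between the parental and the RBM35A+ cells changed together and cannot be told apart. Nor can RNA fraction and extraction method. The labels list polyA RNA for the polysomal arrays and total RNA for the others but describe no poly(A) selection, so whether the polysomal RNA was selected is not known. No group had a replicate, so no difference between RBM35A+ and RBM35A− cells has a replicate check.

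Every cell that divides turns on these genes as a wave late in the cell cycle. Cyclins A and B activate the kinase CDK1, Polo-like and Aurora kinases assemble the spindle, and the checkpoint proteins hold back the anaphase-promoting complex (APC/C) until all chromosomes are attached. CDC20 then activates the APC/C, which marks securin (PTTG1) and the cyclins for destruction so that sister chromatids part. In a whole culture, a change in the share of cells in mitosis and a change in RNA per cell cannot be told apart.

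A log2 value of 5 was reached by 4312 of 12626 probe sets on each polysomal array and by 4269 on each total RNA array. No probe set (0) was annotated to RBM35A or ESRP1, so RBM35A itself could not be checked. Of 12 colon epithelium markers 11 reached 5 on every array, KRT20 being the exception, while 0 of 7 blood cell markers on the array did. Of 8 stroma and endothelium markers, COL1A1 alone reached 5, at 5.58 and 5.56 on the RBM35A+ and RBM35A− polysomal arrays. The spread expected of a difference was taken from genes with several measured probe sets, 489 in number. The SD of 1 probe set was 0.187 for the RBM35A difference in polysomal RNA, 0.211 for that in total RNA and 0.259 for the difference of these differences. It covers disagreement between probes and not between cultures. The SD over all genes analysed was little wider, at 0.218, 0.223 and 0.266 in the same order. Shares of all genes within or beyond such SDs were not counted. Differences below are log2 values, RBM35A+ minus RBM35A−, and values under 5 were raised to 5 before subtraction.

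**Figure D1:**
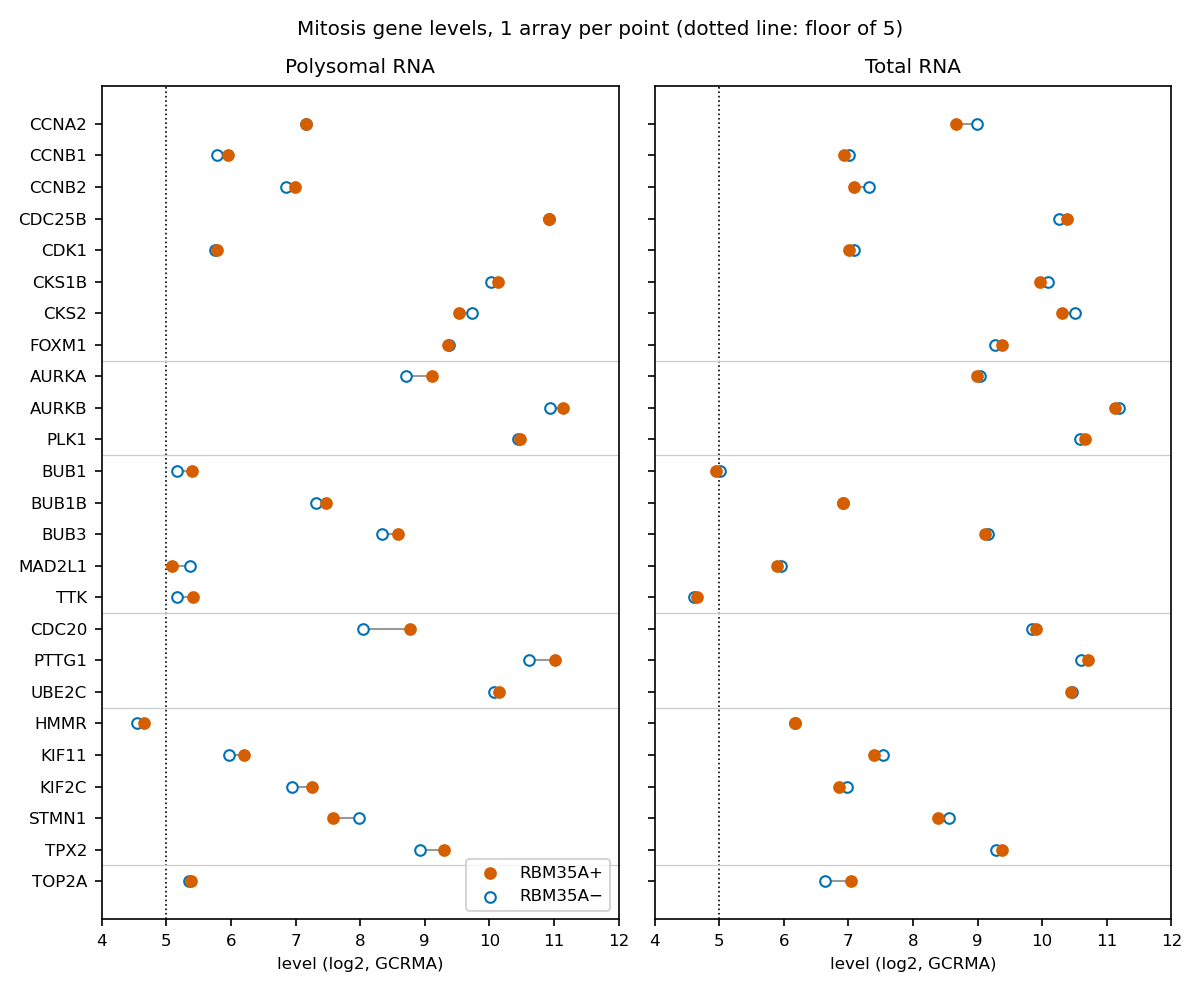
Log2 levels of the 25 mitosis genes that passed the filter, in polysomal RNA (left) and total RNA (right), with filled points for RBM35A+ and open points for RBM35A− cells, 1 array each. Grey lines separate cyclins and regulators, kinases, checkpoint, APC/C, spindle proteins and TOP2A. CDC20 shows the widest gap in polysomal RNA, 8.77 in RBM35A+ against 8.04 in RBM35A− cells, and TOP2A that in total RNA, 7.05 in RBM35A+ against 6.64 in RBM35A− cells.

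In polysomal RNA most of the measured mitosis genes read slightly higher in RBM35A+ than in RBM35A− cells. The difference was above 0 for 19 of 25 and below 0 for 5, with 1 at the floor on both arrays, against 53.3% and 40.4% of the 3588 genes analysed. The median was 0.14, against 0.01 over all genes analysed. At a log2 difference of 0.32 or more in size, the smaller of the 2 thresholds used, 4 mitosis genes were higher (7.05% of all genes) and 1 was lower (6.08%). At 1.5-fold, CDC20 was the 1 gene higher (0.725% of all genes) and 0 were lower (1.23%). Of the 25 differences 12 were within 1 SD of a probe set (0.187) from 0 and 5 were beyond 2 SD. These 5 were the same genes as those past 0.32, a size reached by 7.05% of all genes as higher and 6.08% as lower. The share of all genes beyond 2 SD was not counted, and the SD over all genes analysed was 0.218.

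CDC20, the APC/C activator that the spindle checkpoint restrains, read 8.77 in polysomal RNA of RBM35A+ cells and 8.04 in that of RBM35A− cells. In total RNA it read 9.91 in RBM35A+ and 9.84 in RBM35A− cells. The polysomal difference of 0.72, or 1.65-fold, ranked 8 among the 3588 genes, while the total RNA difference was 0.07. CDC20 has 1 probe set, so no other probe set checks these values. PTTG1, the securin that keeps separase inactive until anaphase, read 11.01 in polysomal and 10.72 in total RNA of RBM35A+ cells, against 10.61 and 10.60 in those of RBM35A− cells, giving differences of 0.40 and 0.11. Its probe set may also detect near-identical family copies such as PTTG2, so its value is uncertain as to gene. UBE2C, the ubiquitin-conjugating enzyme that works with the APC/C, differed by 0.08 in polysomal and −0.02 in total RNA. All 3 genes of this role thus read higher in polysomal RNA, with CDC20 and PTTG1 more than 2 SD of 1 probe set from 0 and UBE2C within 1 SD.

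Among the kinases, AURKA, which matures centrosomes and is activated on the spindle by TPX2, read 9.11 in polysomal RNA of RBM35A+ cells and 8.71 in that of RBM35A− cells. Its total RNA values were 8.99 in RBM35A+ and 9.03 in RBM35A− cells. The differences of 0.40 and −0.05 were close to those of its other probe set, 0.33 and −0.03. That probe set is classed as one of shared sequence, so the 2 may not be independent. TPX2 read 9.30 in polysomal and 9.38 in total RNA of RBM35A+ cells, against 8.93 and 9.29 in those of RBM35A− cells, differences of 0.38 and 0.10. For AURKA and TPX2 the RBM35A+ polysomal array was the higher of its pair by more than 2 SD of 1 probe set. AURKB, the kinase of the chromosomal passenger complex, differed by 0.19 in polysomal and −0.06 in total RNA. PLK1, the Polo-like kinase of mitotic entry and exit, differed by 0.03 and 0.07.

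Of the 5 spindle checkpoint genes 4 read slightly higher in polysomal RNA of RBM35A+ cells, while in total RNA the 4 with a measured difference were within 1 SD of a probe set from 0. Polysomal differences were 0.24 for the kinase BUB1, 0.16 for BUB1B (BubR1), 0.24 for the kinase TTK (MPS1) and 0.25 for the adaptor BUB3. In total RNA BUB1, BUB1B and BUB3 lay between −0.04 and 0.00. TTK was under the floor on both total RNA arrays, at 4.65 in RBM35A+ and 4.61 in RBM35A− cells, so its total RNA difference is unknown, and BUB1 was under it on the RBM35A+ total RNA array, at 4.95. The other probe set of BUB3 went the opposite way in polysomal RNA, at −0.34, so its direction there rests on the choice of probe set. MAD2L1, the checkpoint protein that binds CDC20, was lower, at −0.27 in polysomal and −0.06 in total RNA, and its other measured probe set was under the floor on both polysomal arrays.

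Of the spindle proteins, the kinesin KIF2C, which depolymerises microtubules at kinetochores, read 7.26 in polysomal and 6.86 in total RNA of RBM35A+ cells, against 6.95 and 6.98 in those of RBM35A− cells. KIF11, the kinesin that pushes spindle poles apart, read 6.19 in the polysomal and 7.40 in the total RNA of RBM35A+ cells, against 5.96 and 7.53 in those of RBM35A− cells. Both were the higher of the pair with RBM35A in polysomal RNA (0.31 and 0.23) and the lower in total RNA (−0.12 and −0.14). STMN1, stathmin, which destabilises microtubules, was the exception, reading 7.58 in polysomal and 8.39 in total RNA of RBM35A+ cells, against 7.98 and 8.55 in those of RBM35A− cells. Its differences were −0.40 and −0.17, and the polysomal one was the lowest of the 25 genes. Its only probe set is one of shared sequence, so STMN1 had no value where such probe sets were left out. HMMR, a spindle-associated protein, lay at 4.66 in polysomal RNA of RBM35A+ cells and 4.55 in that of RBM35A− cells, under the floor, and differed by 0.01 in total RNA.

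The cyclins, CDK1 and their regulators were nearly level in polysomal RNA, with a median of 0.02 over 8 genes, and mostly lower in total RNA, with a median of −0.11. CCNA2, cyclin A2, read 7.17 in polysomal and 8.66 in total RNA of RBM35A+ cells, against 7.16 and 9.00 in those of RBM35A− cells. Its total RNA difference of −0.34 was the lowest of the 25 genes, and its other probe set gave −0.14. CCNB1, cyclin B1, read 5.96 in polysomal and 6.93 in total RNA of RBM35A+ cells, against 5.78 and 7.01 in those of RBM35A− cells. The differences were 0.18 and −0.08, and its other probe set gave polysomal and total RNA differences of 0.48 and 0.03. CCNB2, cyclin B2, read 6.99 and 7.09 in the polysomal and total RNA of RBM35A+ cells, against 6.85 and 7.32 in those of RBM35A− cells, differences of 0.14 and −0.22. At the probe set used, the 3 cyclins thus read lower with RBM35A in total RNA and level or higher in polysomal RNA.

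CDK1, the kinase these cyclins activate, read 5.78 in polysomal and 7.00 in total RNA of RBM35A+ cells, against 5.76 and 7.09 in those of RBM35A− cells, so neither fraction differed by more than 1 SD of a probe set. The CDK-binding proteins split: CKS1B was at 0.11 in polysomal and −0.13 in total RNA, and CKS2 at −0.20 in both fractions. CDC25B, the phosphatase that activates CDK1, was at −0.00 and 0.13, and FOXM1, the transcription factor of many mitosis genes, at −0.01 and 0.11. TOP2A, the topoisomerase that untangles sister chromatids, read 5.38 in polysomal and 7.05 in total RNA of RBM35A+ cells, against 5.34 and 6.64 in those of RBM35A− cells. Its total RNA difference of 0.41 was the highest of the 25 genes, but its other probe sets gave −0.08 and 0.04, so the value rests on 1 probe set.

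**Figure D2:**
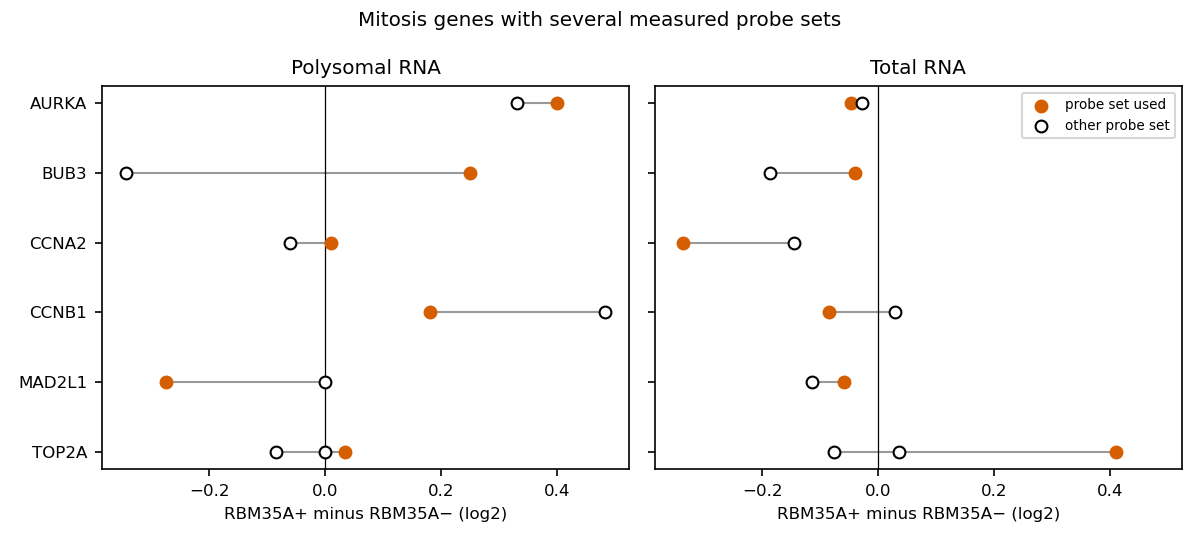
RBM35A+ minus RBM35A− (log2) in polysomal RNA (left) and total RNA (right) at every measured probe set of the 6 mitosis genes with more than 1, filled for the probe set used and open for the others. AURKA's probe sets lie together, whereas those of BUB3 in polysomal RNA run from −0.34 to 0.25 and those of TOP2A in total RNA from −0.08 to 0.41.

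In total RNA the measured mitosis genes leaned slightly the other way. The difference was above 0 for 9 of 25 and below 0 for 15, with TTK at the floor on both arrays, against 46.5% and 45.6% of all genes. It had a median of −0.04 against 0.00 over all genes. Past 0.32, TOP2A was the 1 gene higher (6.66% of all genes) and CCNA2 the 1 gene lower (6.19%). At 1.5-fold 0 were higher (1.42%) and 0 lower (0.613%). The shares past 0.32 were near those of all genes, and 22 of the 25 differences were within 1 SD of a probe set (0.211) from 0, TTK's floored value among them.

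Set side by side, 12 of the 25 genes were lower in total RNA and higher in polysomal RNA with RBM35A, against 19% of all genes analysed. The reverse held for 2, CDC25B and FOXM1, against 15.3%. Another 6 were higher in both fractions, 3 (CKS2, MAD2L1 and STMN1) were lower in both, and 2 were at the floor in 1 fraction. The polysomal difference exceeded the total RNA difference for 18 of 25 genes (52.6% of all genes) and fell short of it for 7 (47.4%). These counts include TTK and HMMR, each under the floor on both arrays of 1 fraction. The median difference of differences was 0.24, against 0.01 over all genes, and the middle 50% of all genes ran from −0.15 to 0.17. Without TTK and HMMR, a choice made after seeing the data, 17 of 23 genes were above 0 and 6 below, with a median of 0.25, against 50.5% above 0 among the 3123 genes so measured.

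Past 0.32, the difference of differences was higher for 6 mitosis genes (10.3% of all genes) and lower for 1 (9.42%). The 6 were CDC20 (0.65), AURKA (0.45), KIF2C (0.43), KIF11 (0.37), CCNB2 (0.36) and CCNA2 (0.35), and the 1 was TOP2A (−0.38). CCNA2's other probe set gave 0.08 and those of TOP2A −0.01 and −0.04, while AURKA's gave 0.36. CDC20, KIF2C, KIF11 and CCNB2 have 1 probe set each and so no such check. Of the 25 values 14 were within 1 SD of a probe set (0.259) from 0, and 1, that of CDC20, was beyond 2 SD. CDC20 was the 1 member past 1.5-fold (1.31% of all genes higher, 2.12% lower, with 0 mitosis genes lower). By role, the median was 0.18 for cyclins and CDK1 regulators, 0.26 for kinases, 0.24 for checkpoint genes, 0.28 for APC/C genes and 0.28 for spindle proteins.

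**Figure D3:**
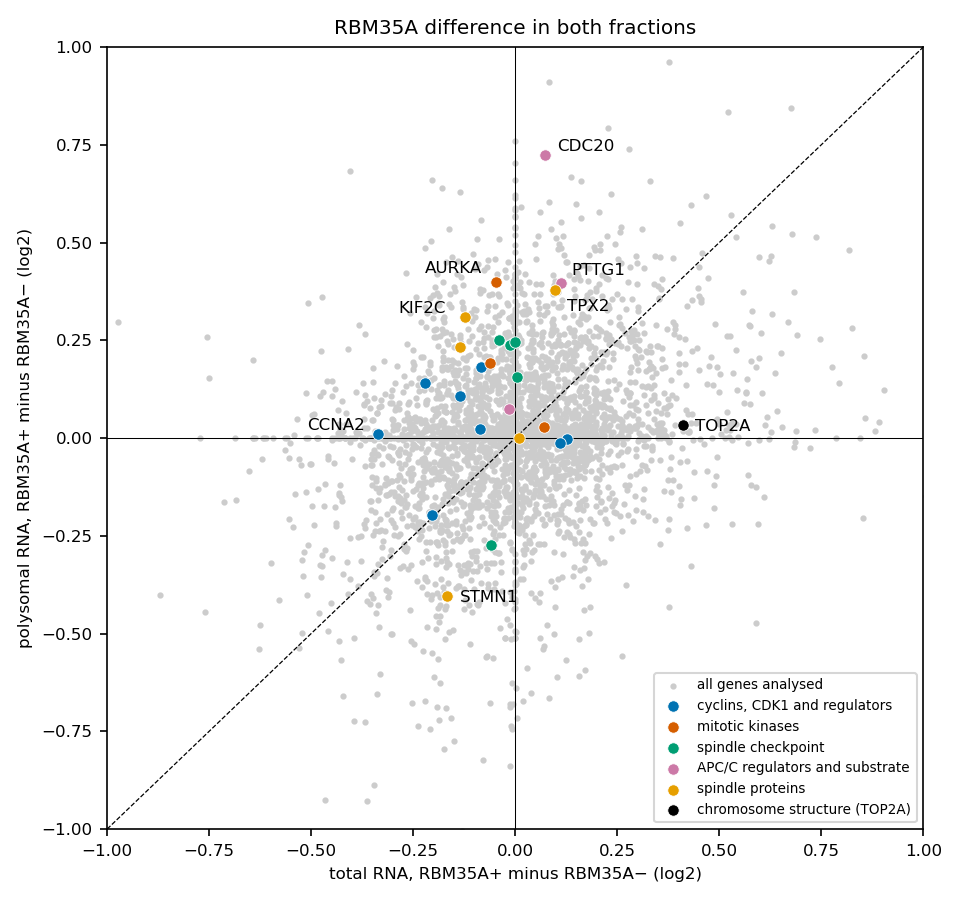
RBM35A+ minus RBM35A− (log2) in total RNA (x) and polysomal RNA (y) for the mitosis genes, coloured by role, over all genes analysed in grey. The dashed line marks equal differences, and 11 genes lie outside the axes. Most mitosis genes lie above the dashed line, with CDC20 at 0.07 and 0.72 the highest, while TOP2A at 0.41 and 0.03 lies below it.

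**Figure D4:**
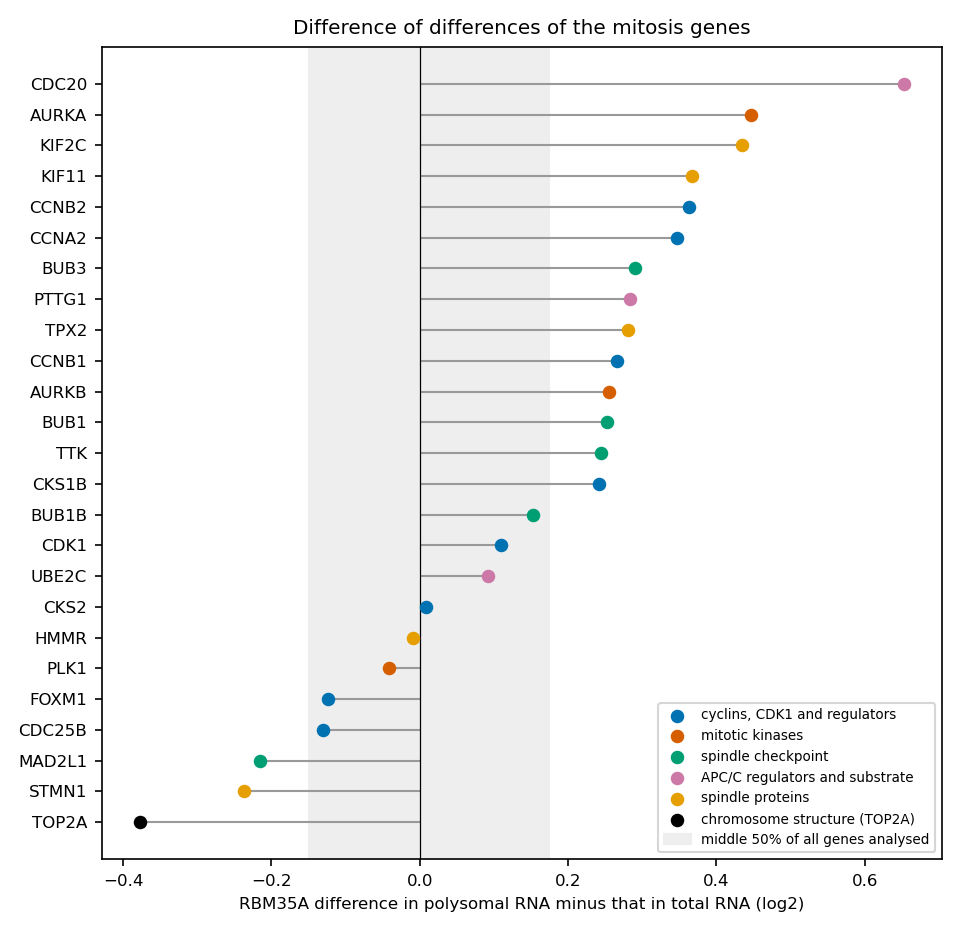
RBM35A difference in polysomal RNA minus that in total RNA (log2) for each mitosis gene, ordered by value, with the grey band marking the middle 50% of all genes analysed. Values run from −0.38 for TOP2A to 0.65 for CDC20.

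The polysomal arrays also differed at control probe sets that lie at the 5′ ends of 2 abundant transcripts. The 5′ probe set of beta-actin read 9.42 in polysomal RNA of RBM35A+ cells and 10.29 in that of RBM35A− cells, a difference of −0.86, and that of GAPDH differed by −0.79. Their 3′ probe sets differed by −0.02 and −0.13. The 5′ signal was therefore lower on the array on which most mitosis genes were slightly higher. Where each mitosis probe set lies along its transcript was not used here, and the part of this difference in the values above was not tested. Colon epithelium markers were lower on the same array, with 9 of 11 below 0 and a median of −0.22 in polysomal RNA; in total RNA 5 of 11 were below 0 and the median was 0.01. Their part was not tested either.

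An additive model of RBM35A state and RNA fraction was fitted across all genes with limma. Its 1 residual degree of freedom is the interaction of state and fraction. The fit thus tests the mean RBM35A difference of both fractions against 0, with the disagreement between fractions as the error. That error is shrunk by limma toward a value pooled over all genes, and the fit holds no spread between cultures. It called 0 of 3588 genes (0%) at an adjusted p of 0.05, and 369 genes (10.3%) at an unadjusted p under 0.05. Of the mitosis genes 0 were called, and 2 were under the unadjusted threshold, a share near that of all genes. These were CDC20, with a mean difference of 0.40 (SE 0.164, adjusted p = 0.478 with limma), and STMN1, with −0.29 (SE 0.111, adjusted p = 0.462 with limma).

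Polysomal and total RNA arrays had been normalized apart, so levels set across them are read against the median of all genes, 0.09 in both RBM35A+ and RBM35A− cells. Polysomal minus total RNA of the mitosis genes had a median of −0.20 in RBM35A+ cells and −0.40 in RBM35A− cells. With each array centred on its median these became −0.40 in RBM35A+ and −0.59 in RBM35A− cells, and the medians of all genes −0.12 in RBM35A+ and −0.10 in RBM35A− cells, so the gap to all genes was −0.28 in RBM35A+ and −0.49 in RBM35A− cells either way. It was above 0 for 9 of 25 (55.2% of all genes) in RBM35A+ and for 6 (55%) in RBM35A− cells. At 1.5-fold, 10 were lower in polysomal than in total RNA in RBM35A+ cells (17.4% of all genes) and 10 in RBM35A− cells (17.5%). CDC25B was the 1 gene 1.5-fold higher, in RBM35A− cells (25.9%), and 0 were in RBM35A+ cells (26.3%). The SD of 1 probe set for this quantity was 0.840 in RBM35A+ and 0.807 in RBM35A− cells, and 15 and 16 of the 25 genes lay within 1 such SD of the median of all genes.

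The mitosis genes were spread over more than 2 log2 units in this respect. In RBM35A+ and RBM35A− cells, CCNA2 was at −1.50 and −1.84, TOP2A at −1.67 and −1.29, KIF11 at −1.20 and −1.57, CDK1 at −1.22 and −1.33 and CDC20 at −1.14 and −1.80. At the other end lay CDC25B at 0.54 and 0.68, BUB1B at 0.55 and 0.40, and TTK at 0.41 and 0.17, the last measured against a floored total RNA value. CDC20 thus had one of the lowest polysomal to total ratios in RBM35A− cells and a higher one in RBM35A+ cells. For HMMR, −1.18 and −1.17, the polysomal values were floored, so the sizes are lower bounds. The beta-actin 5′ control was at −5.32 and −4.51 and its 3′ control at −0.27 and −0.30. Those of GAPDH were at −2.59 and −1.83 and at −0.14 and −0.16. For these transcripts the place of a probe set moves with this measure. The transferrin receptor differed, with its 5′ control at −1.60 and −1.16 and its 3′ control at −3.99 and −3.55, all with floored polysomal values. The part of probe set place in the spread among mitosis genes was not tested.

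**Figure D5:**
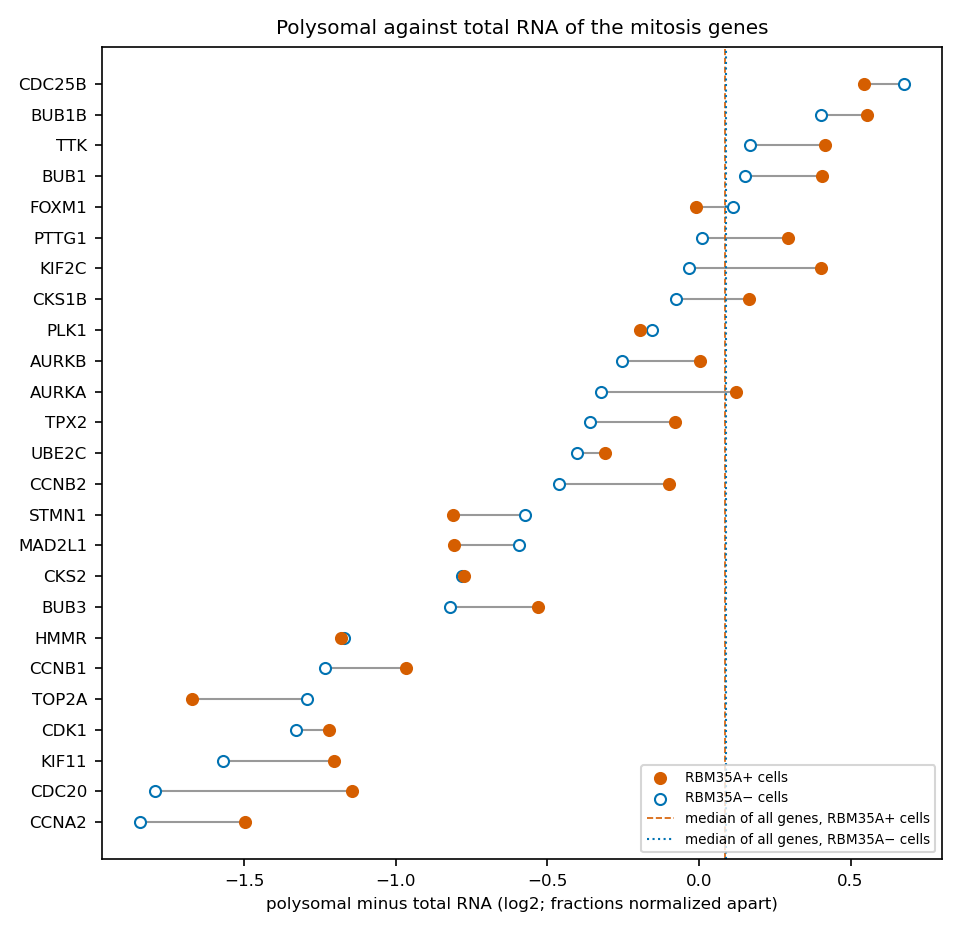
Polysomal minus total RNA (log2) for each mitosis gene in RBM35A+ cells (filled) and RBM35A− cells (open), with vertical lines at the medians of all genes analysed. Values run from −1.84 for CCNA2 to 0.68 for CDC25B, both in RBM35A− cells.

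The remaining 9 listed genes gave no difference. CDC25C, NEK2, CENPE, CENPF, BIRC5 (survivin), KIF23 and MKI67 (the antigen Ki-67) stayed under 5 on all 4 arrays. CENPA gave none because its probe set is also annotated to another gene. Of the centromere and chromosomal passenger genes, AURKB was thus the 1 measured. KIF20A had no probe set with exactly 1 symbol. Of the undetected genes, CENPF and KIF23 read 4.79 and 4.11 in polysomal RNA of RBM35A+ cells, against 4.53 and 3.81 in that of RBM35A− cells, while MKI67 read 4.49 in RBM35A+ and 4.40 in RBM35A− cells. Values this low have no dependable order.

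Other genes of mitosis and the cell cycle were examined from 5 further lists. Of 15 measured spindle and kinetochore genes outside the 34, 7 were above and 7 below 0 in polysomal RNA, against 53.3% and 40.4% of all genes. Their median was 0.00. Past 0.32 lay 2 higher, NDC80 (0.48) and KIF14 (0.35), and 0 lower, against 7.05% and 6.08% of all genes. The kinetochore protein NDC80 read 6.21 in polysomal and 5.10 in total RNA of RBM35A+ cells, against 5.72 and 5.32 in those of RBM35A− cells, a difference of differences of 0.71, the 1 value of this list past 1.5-fold (1.31% of all genes higher, 2.12% lower). Past 0.32 in that measure lay also KIF22, higher at 0.47, and 2 lower, CENPB at −0.50 and PKMYT1 at −0.54 (10.3% of all genes higher, 9.42% lower). Of 7 cohesin and condensin genes 1, SMC1A at 0.37, was past 0.32 in polysomal RNA, and of 5 APC/C subunits and partners 0 were, against 7.05% of all genes higher and 6.08% lower. The median differences of differences were 0.06 for the spindle and kinetochore genes, 0.10 for cohesin and condensin and 0.11 for the APC/C. In the same order, 11, 4 and 4 of these genes lay above 0 and 4, 3 and 1 below, against 52.6% and 47.4% of all genes. Of these, KNTC1, KIFC1 and CLASP1, above 0, and STAG2, below 0, were under the floor on both arrays of a fraction.

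Over 23 measured genes, DNA replication genes had a median of 0.03 in polysomal RNA and −0.04 in total RNA. The mitosis genes had 0.14 and −0.04. The median difference of differences of the replication genes was 0.15, with 17 above and 6 below 0, against 52.6% and 47.4% of all genes. The 17 include MCM4, MCM5, RRM2 and CDC6, under the floor on both polysomal arrays, and E2F1, under it on both total RNA arrays. The licensing factor CDC6 (0.69, with both polysomal arrays under the floor) and the thymidine kinase TK1 (0.59) were past 1.5-fold, against 1.31% of all genes higher. Their total RNA differences were −0.69 and −0.47. Cyclin D, CDK and CDK inhibitor genes of the early cell cycle lay at −0.03 over 9 measured genes, with 4 above and 5 below 0. Among those above 0, CDK6, CDKN1B and RB1 each had a fraction in which an array pair held a floored value only or no unfloored difference. These lists were not tested against one another.

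Promoter sequence was compared because the mitosis genes are known as a co-regulated class. Many carry a cell cycle genes homology region (CHR), bound by the DREAM and MYB-MuvB complexes, and CCAAT boxes, bound by NF-Y. RefSeq promoter windows of 300 bases (build GRCh38.p14, 250 before to 50 after a transcript start) matched 19 of the 25 measured genes, some with several starts, giving 27 windows. AURKA, BUB3, FOXM1, TPX2, TTK and UBE2C had no entry. The letters TTTGAA or TTCGAA were searched on both strands, as was CCAAT, and letters that belong to both motifs counted for each. The CHR letters were in 14 of 27 windows (51.9%), against 11.4% of 4626 windows of the genes analysed and 16.4% of all 35116 windows. CCAAT was in 21 of 27 (77.8%), against 35.2% and 34.6%. Both were in 13 (48.1%), against 4.43% and 6.38%. A match is a description of letters and not a binding site.

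The 200 bases before the start are shown for CDC20, CCNB2 and KIF11, members past 0.32 in the difference of differences with 1 promoter entry and both kinds of letters, and for TOP2A, which lay at the opposite end. Of the other members past 0.32 with 1 entry, CCNA2 held CCAAT but no CHR letters, and KIF2C held neither. Sequences run 5′ to 3′ on the gene's strand, and capitals mark the CHR letters (TTTGAA, or TTCAAA on the other strand) and CCAAT (or ATTGG on the other strand).
CDC20, chr1:43358781-43358980, plus strand: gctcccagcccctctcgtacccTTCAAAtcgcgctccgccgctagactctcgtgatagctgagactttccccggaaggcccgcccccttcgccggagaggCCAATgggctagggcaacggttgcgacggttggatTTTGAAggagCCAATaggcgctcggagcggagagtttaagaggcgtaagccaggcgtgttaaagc
CCNB2, chr15:59104946-59105145, plus strand: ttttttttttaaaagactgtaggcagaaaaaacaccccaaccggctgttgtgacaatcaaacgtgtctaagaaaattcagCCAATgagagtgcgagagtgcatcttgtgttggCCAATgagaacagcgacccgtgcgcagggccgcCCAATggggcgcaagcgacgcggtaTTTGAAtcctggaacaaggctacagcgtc
KIF11, chr10:92592930-92593129, plus strand: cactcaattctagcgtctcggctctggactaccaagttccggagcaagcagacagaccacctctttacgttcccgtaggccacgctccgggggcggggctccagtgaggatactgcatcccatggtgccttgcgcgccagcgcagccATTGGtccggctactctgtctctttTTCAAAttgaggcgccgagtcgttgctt
TOP2A, chr17:40417897-40418096, minus strand: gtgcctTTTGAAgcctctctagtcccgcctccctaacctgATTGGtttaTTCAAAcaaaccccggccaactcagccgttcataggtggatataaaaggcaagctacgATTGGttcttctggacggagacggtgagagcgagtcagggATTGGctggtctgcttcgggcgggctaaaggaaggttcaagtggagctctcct
CDC20, CCNB2 and KIF11 hold CHR letters 65, 29 and 28 bases before the start. CCAAT or ATTGG starts 55, 54 and 53 bases before it, in the same order. The CHR letters precede that match in CDC20 and follow it in CCNB2 and KIF11. Within the printed bases CDC20 also holds CHR letters at 178 and CCAAT at 100, and CCNB2 also CCAAT at 120 and 87. TOP2A holds CHR letters 194 and 151 bases before the start and ATTGG at 160, 93 and 53. CDC20, CCNB2 and KIF11 were chosen for holding both kinds of letters, so finding them there says nothing about the difference of differences. TOP2A's place at the opposite end rests on the probe set used, its others giving −0.01 and −0.04. Whether the letters go with the difference of differences was not tested.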

How the data were processed

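RNA was measured on 4 Affymetrix HG-U95Av2 arrays, which read sets of short probes, with 10 µg of RNA per array per the labels' protocols. The deposited values are log2 probe set summaries produced by the authors' GCRMA step, a background correction by probe base composition, per the submitters' processing notes (version not given in the sources used here). Sorted values differed by at most 6.61e-06 between the polysomal arrays and 4.29e-06 between the total RNA arrays, but by up to 0.227 across fractions, so each pair had been quantile normalized apart. A shift shared by most genes of 1 array would thus have been removed. The precision is limited by the number of arrays.

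The array annotation gave 10943 non-control probe sets 1 symbol, 546 several and 1070 none, and 10934 were matched by gene ID to RefSeq symbols (GRCh38.p14). Values under 5 were raised to 5. Differences were counted at a log2 size of 0.32 and at 1.5-fold without a test, since each group has 1 array, and limma 3.58.1 in R 4.3.3 gave Benjamini-Hochberg adjusted p-values over all genes analysed. Alternatives were floors of 4 and 6, no floor, the mean of probe sets, no probe sets of shared sequence and median centring. Members, lists and thresholds were chosen with earlier results of these data known. Every measured member is named, with values on all arrays for those past 0.32 in total RNA, in polysomal RNA or in the difference of differences and for CDK1, CCNB1 and TOP2A, and of other lists genes past 1.5-fold were named. SMC1A, NDC80's total RNA values, KIF14, KIF22, CENPB, PKMYT1, the marker genes and the promoters of CCNA2 and KIF2C were added after their values were seen.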

Additional observations from a re-analysis of the deposited data

Results flagged for a closer look

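The RBM35A difference had opposite signs in polysomal and total RNA for the median of the measured mitosis genes, 0.14 in polysomal and −0.040 in total RNA, and for 14 single genes. Of all genes analysed, 19% were lower in total and higher in polysomal RNA with RBM35A, and 15.3% the reverse. With 1 array a group the opposite signs were not tested, and many of these differences are smaller than the SD of 1 probe set. Higher in polysomal and lower in total RNA of RBM35A+ cells, with the polysomal minus the total RNA difference, were AURKA (0.45), KIF2C (0.43), KIF11 (0.37), CCNB2 (0.36), CCNA2 (0.35) and BUB3 (0.29). The same held for CCNB1 (0.27), AURKB (0.26), BUB1 (0.25), CKS1B (0.24), CDK1 (0.11) and UBE2C (0.092). Lower in polysomal and higher in total RNA were CDC25B (−0.13) and FOXM1 (−0.12). At their other probe sets BUB3 was lower in both fractions (−0.34 and −0.19), CCNA2 was also lower in both (−0.06 and −0.14), and CCNB1 was higher in both (0.48 and 0.03). AURKA's other probe set, classed as one of shared sequence, kept its signs (0.33 and −0.03).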

How the results depend on the processing

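Each group had 1 array, so no array could be left out, and RNA fraction was the block of the limma fit. Over the 6 alternatives of floor, probe set choice and centring the median of the measured mitosis genes stayed above 0 in polysomal RNA (0.09 to 0.14), below 0 in total RNA (−0.05 to −0.02) and above 0 for the difference of differences (0.20 to 0.24). That of polysomal minus total RNA ran from −0.40 to −0.09 in RBM35A+ and from −0.59 to −0.34 in RBM35A− cells, the lowest with median centring. With probe sets averaged per gene, the mitosis genes past 0.32 higher and lower in total RNA became 0 and 0, and those lower for the difference of differences 0, since TOP2A and CCNA2 lost their size. The number of all genes 1.5-fold lower in total RNA, 22, became 43 with a floor of 4, 12 with a floor of 6, 34 without a floor and 11 with the mean of probe sets. For polysomal minus total RNA, the mitosis genes past 0.32 higher in RBM35A+ cells, 5, became 3 with a floor of 6 and 2 with median centring. In RBM35A− cells, 2 became 4 with a floor of 4 and 1 with centring, and the 6 above 0 became 2 with centring. The limma fit called 15 genes without the floor, none (0) of them a mitosis gene, against 0 with it. The causes were not tested. BUB3's polysomal difference was −0.34 without probe sets of shared sequence and −0.05 with the mean, against 0.25. MAD2L1's difference of differences was 0.11 without such probe sets, against −0.22, and STMN1 then had no value. Signal near background leaves 7 listed genes unmeasured.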
